A study of Mus musculus with 30 samples.

Results

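Subcutaneous fat of mice carrying a growth hormone receptor cut short at amino acid 391 was compared with fat of wild-type (WT) mice. The comparison holds 6 of the 30 arrays of the series, chosen by tissue and genotype label alone: 3 fat arrays labelled 391 and 3 labelled WT. The other fat arrays, 3 for each label, came from mice whose receptor ends at amino acid 569 (569), mice with a mutated Box1 (Box1) and mice that lack the receptor (KO), and the same 5 genotypes were measured in liver. All mice were males aged 4 months that were killed after an overnight fast. The sources used here do not say how the alleles were made, what the strain was or whether the 3 arrays of a group came from 3 animals, so the p-values measure the spread between these arrays, which may be technical in part. The deposited value is the ratio of a probe on an array to that probe's median in the tissue, taken over 15 arrays. A ratio of 1 is therefore the middle of the 15 fat arrays, no level is known, and genes cannot be ranked by abundance.

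Growth hormone binds its receptor on the cell surface and activates the kinase JAK2, which docks at the Box1 motif of the receptor's intracellular tail. JAK2 phosphorylates tyrosines in the tail that recruit STAT5a and STAT5b, and these factors then enter the nucleus and switch on genes such as Igf1, Igfals, Socs2 and Cish. Truncations of the tail remove STAT5 docking sites while leaving Box1. In fat, growth hormone is known for promoting lipolysis, opposing insulin and raising local IGF-I.

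STAT5 proteins bind DNA at the motif TTCNNNGAA, which reads the same on both strands. RefSeq promoters (build GRCm38.p6, 250 bases before to 50 after a transcript start) were matched for 11 of 15 genes looked up: the 5 named genes called below, the receptor axis and Trp63. No promoter was matched for Sctr, Man2a2, Socs2 and Trp63, so these were not searched. The motif was found for 2 of the 11 genes, Cish and Igfals, next to 9.55% of all 27025 genes with a promoter in the table, and 8.3% of all 32851 promoters of this length hold it. The Cish promoter (chr9:107296409-107296708, plus strand), with 2 motifs, and an Igfals promoter (chr17:24877981-24878280, plus strand), 1 of 3 in the table of which 2 hold 1 motif each, are shown because both genes are growth hormone targets whose values are given below. Capitals mark the motif.
Cish: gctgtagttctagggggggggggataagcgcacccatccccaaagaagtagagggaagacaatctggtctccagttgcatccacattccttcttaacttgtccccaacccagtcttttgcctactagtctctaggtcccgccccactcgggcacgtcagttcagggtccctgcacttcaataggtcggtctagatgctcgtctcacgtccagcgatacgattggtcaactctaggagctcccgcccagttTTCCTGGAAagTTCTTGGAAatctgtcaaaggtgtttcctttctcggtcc
Igfals: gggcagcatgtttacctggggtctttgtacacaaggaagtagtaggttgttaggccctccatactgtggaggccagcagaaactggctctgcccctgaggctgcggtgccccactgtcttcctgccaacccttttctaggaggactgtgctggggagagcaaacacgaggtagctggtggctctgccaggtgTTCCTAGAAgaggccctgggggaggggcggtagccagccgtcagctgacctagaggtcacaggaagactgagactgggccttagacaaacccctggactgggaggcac

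The fat arrays labelled WT and 569 share a slide, and those labelled 391 and KO share another slide. Slide and genotype therefore cannot be told apart in 391 against WT, while 391 against KO is a comparison within a slide. On the 6 arrays compared, between 157 and 564 of 46643 probes lay more than 2-fold from their median; 569 replicate 3 stood apart with 5590, and it enters the shared estimate of spread. The ratios of the more variable Ghr probe were 1, 2.05 and 1.64 on the WT arrays, 0.46, 0.27 and 0.47 on the 391 arrays, and 1.03, 0.68 and 1.26 on the KO arrays. The sources used here do not give where the Ghr probes lie relative to the deleted or truncated part, so they do not check the labels. Since no level is known, fat cell markers cannot check the tissue either.

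A set of probes stood apart under different labels in the 2 tissues. Nothing in the files ties these probes to a receptor form. With a gap of more than 0.3 on the log2 scale to all 12 other arrays of the tissue, a limit chosen after the values were seen, 17 probes set the fat arrays labelled 391 apart and 59 probes set the liver arrays labelled KO apart. Of these, 7 were in both sets, all in the same direction, which is 41.2% of the fat set and 11.9% of the liver set. No probe set apart the liver arrays labelled 391 or the fat arrays labelled WT or Box1, so 13 of the 24 other pairs of labels could share none. The remaining 11 pairs shared none either, but some rest on few probes, such as fat KO with 6. The 7 were Pttg1, Gdi2, Adat2, Thg1l, Gbp2b and 2 probes with no gene symbol. Pttg1 encodes securin, the inhibitor of the separase that splits sister chromatids. Its ratios were 0.35, 0.31 and 0.28 in fat labelled 391 and 0.94, 1.04 and 1 in fat labelled KO, but 1, 1.07 and 1.01 in liver labelled 391 and 0.38, 0.39 and 0.38 in liver labelled KO. Gdi2, a regulator that extracts Rab GTPases from membranes, stood at 0.15, 0.09 and 0.1 in fat labelled 391 and at 0.13, 0.14 and 0.13 in liver labelled KO, against 1.26, 1.03 and 1.47 in liver labelled 391. Hbb-b2, an adult beta-globin gene, was high on all 3 fat arrays labelled 391 (9.68, 6.55 and 8.3), on all 3 labelled KO in fat (8.08, 8.36 and 11.79) and in liver (7.8, 11.77 and 10.1), and on 1 of 3 liver arrays labelled 391 (0.98, 6.68 and 0.96). It was also high on fat 569 replicate 2 (10.82), liver 569 replicate 2 (7.24) and liver Box1 replicate 3 (7.32), so high values were not limited to the labels 391 and KO. Whether labels were exchanged was not tested. The groups are called by their labels throughout, and fat labelled KO is given beside each gene called between 391 and WT.

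**Figure D1:**
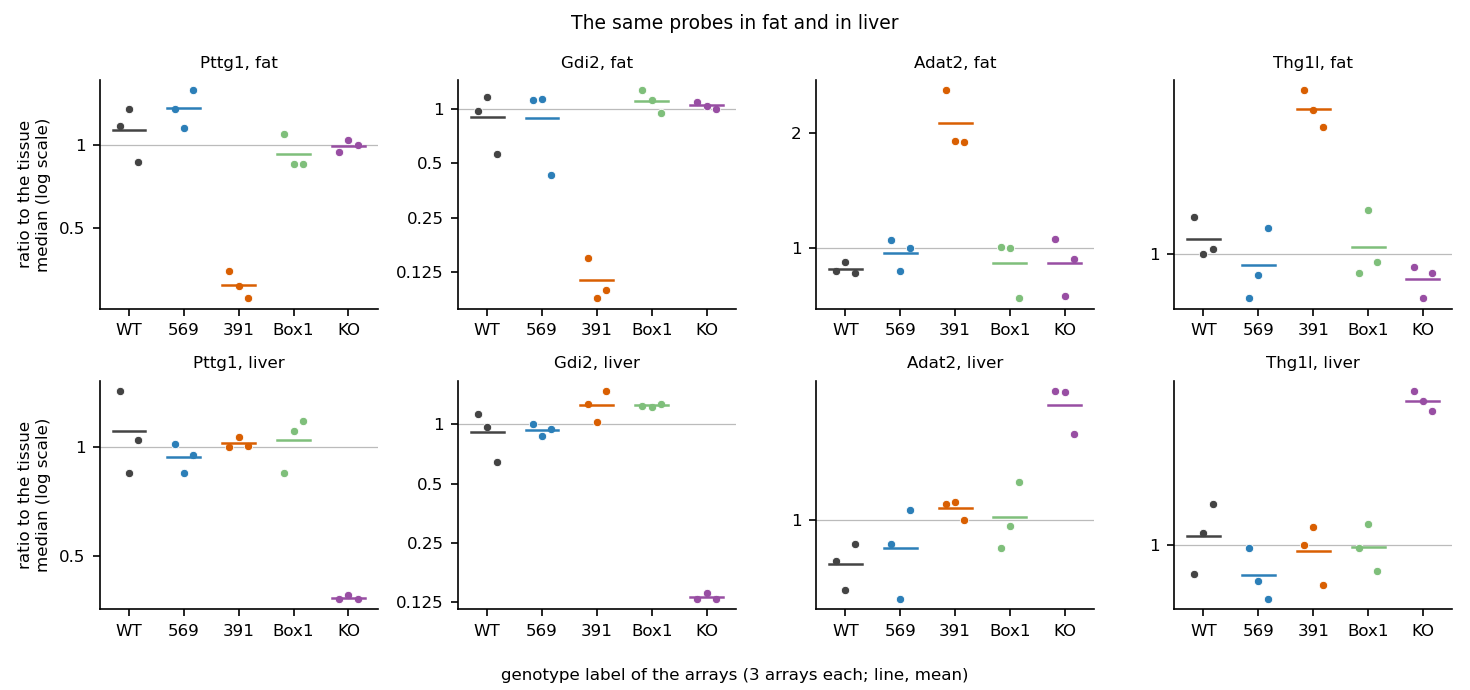
Ratio of each array to the tissue median on a log axis for Pttg1, Gdi2, Adat2 and Thg1l in fat (top) and liver (bottom), 3 arrays per genotype label, with the line at the mean. In fat the arrays labelled 391 stand apart (Pttg1 0.35, 0.31 and 0.28), in liver those labelled KO (0.38, 0.39 and 0.38).

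Between fat labelled 391 and WT, 6 of 46643 probes (0.0129%) passed limma's moderated test at a Benjamini-Hochberg adjusted p under 0.05, 4 lower in 391 (0.00858%) and 2 higher (0.00429%). Lower were Sctr, Pttg1, Gdi2 and Man2a2, and higher were Adat2 and a probe with no gene symbol; 2134 probes (4.58%) had an unadjusted p under 0.05. The 391 and WT arrays did not overlap in either direction for far more probes, 4.64% with all 391 arrays higher and 5.07% with all lower, so a lack of overlap alone marks nothing. In whole fat, fewer cells of a type and less RNA per cell cannot be told apart. Without 391 replicate 1, 2 or 3 the count of calls was 2, 0 and 6, and without WT replicate 1, 2 or 3 it was 0, 1 and 4; the fits with 0 calls had 2363 and 1890 probes at an unadjusted p under 0.05. After quantile normalization of the arrays 24 probes were called, 11 higher and 13 lower, with 5 of the 6 among them.

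Sctr, the receptor of the gut hormone secretin, stood at 2.8, 3.52 and 2.78 on the WT arrays and at 0.75, 0.56 and 0.65 on the 391 arrays. It fell by 2.22 on the log2 scale (SE 0.22, limma adjusted p = 0.00807). The 569 arrays (3.26, 3.37 and 2.65) were as high as WT, and the KO (0.86, 1 and 0.79) and Box1 arrays (0.77, 0.49 and 1.03) were as low as 391 or nearly so. The arrays thus fell into a high and a low group that follow the slides as well as the receptor forms, which cannot be told apart here. In liver Sctr was flat, with WT at 1.02, 0.96 and 1 and 391 at 0.94, 0.93 and 1.03. After quantile normalization the Sctr difference was larger (log2 difference -2.91) and not called (adjusted p = 0.0757).

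Man2a2, a Golgi mannosidase that trims N-glycans, had ratios of 1.51, 1.57 and 1.24 in WT and 0.56, 0.75 and 0.57 in 391. It fell by 1.21 (SE 0.16, limma adjusted p = 0.047), and the KO arrays (1, 0.84 and 0.96) lay between the 2 groups. The other probes of the gene were lower by 1.09 (log2 difference -1.09, adjusted p = 0.298) and by 0.53 (log2 difference -0.53, adjusted p = 0.503), neither of them called. All 3 probes had no overlap between 391 and WT. Leaving out any of the 6 arrays in turn lost the Man2a2 call, with adjusted p between 0.0516 and 0.356.

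The other 4 called probes set the 391-labelled arrays apart from every other fat array. Pttg1, with 1.17, 1.34 and 0.87 in WT, fell by 1.83 (SE 0.16, limma adjusted p = 0.00446). Gdi2, with 0.97, 1.16 and 0.56 in WT and 1.09, 1.04 and 1 in KO, fell by 2.96 (SE 0.35, adjusted p = 0.0288). Other Gdi2 probes did not follow, at log2 differences of 0.26 and -0.11. Adat2, the catalytic subunit of an enzyme that makes inosine in transfer RNA, had ratios of 0.87, 0.92 and 0.86 in WT, 2.59, 1.91 and 1.9 in 391, and 1.06, 0.75 and 0.94 in KO. It rose by 1.26 (SE 0.16, limma adjusted p = 0.042). The probe with no symbol rose by 1.14 (SE 0.14, adjusted p = 0.0288), from 1.1, 0.99 and 1.11 in WT to 2.24, 2.38 and 2.43 in 391, with KO at 0.93, 0.76 and 0.95. Pttg1, Gdi2 and Adat2 are among the genes that set apart the KO label in liver. Refitted with 1 array left out at a time, Pttg1 lost its call in 2 of 6 refits, Sctr in 3, Gdi2 in 5, and Adat2, Man2a2 and the unnamed probe in all 6. In a fit of the 6 arrays alone, 7 probes were called, of which 2 (Sctr and the unnamed probe) were among the 6; Trp63 (adjusted p = 0.0328) and Hbb-b2 (0.023) were among the others.

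**Figure D2:**
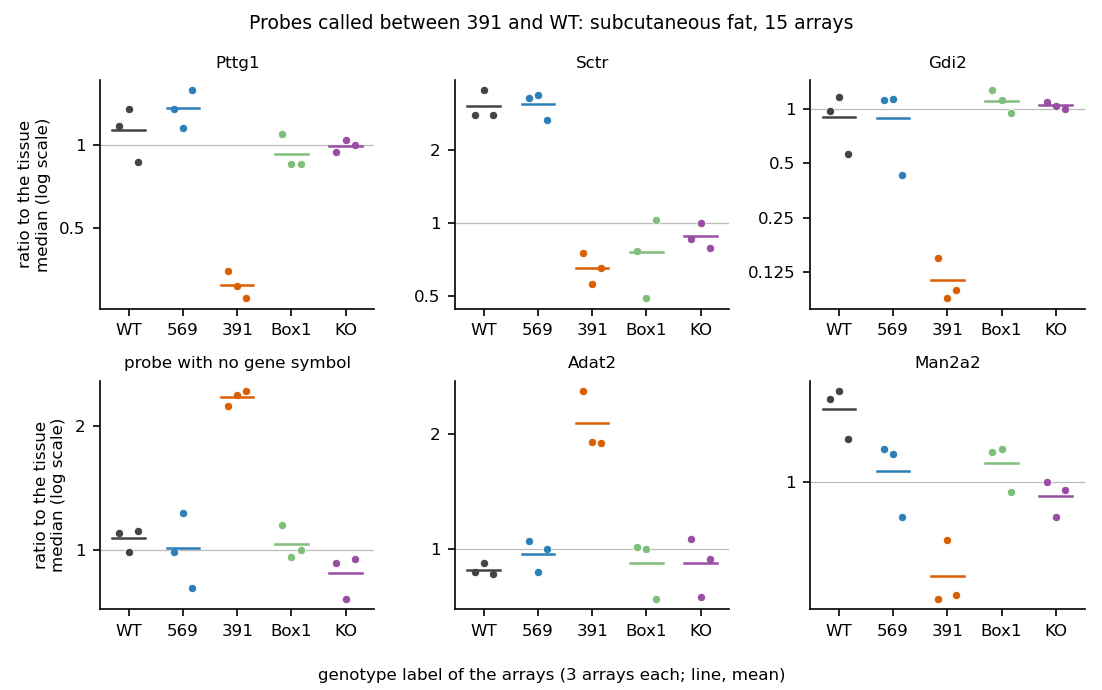
Ratio to the fat median on a log axis for the 6 probes called between 391 and WT, on all 15 fat arrays by genotype label, 3 arrays each, with the line at the mean. Sctr is high in WT and 569 and low in 391, Box1 and KO, whereas Pttg1, Gdi2, Adat2 and the probe with no symbol set 391 apart from all other labels.

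The genes with the next smallest p-values were not called. On the higher side they were Rbm10, a splicing regulator (log2 difference 0.90, adjusted p = 0.143), Usp14, a deubiquitinase of the proteasome (0.84, 0.199), Thg1l, which adds a guanosine to histidine transfer RNA (0.75, 0.201), Dmtf1 (1.08, 0.226), Hhip, which binds and restrains Hedgehog ligands (0.98, 0.226), Mlec (0.41, 0.335), Psca (0.53, 0.372), Ppfibp1 (1.99, 0.398), Tram1l1 (0.45, 0.401), Nrn1l (0.42, 0.401) and Olfr1419 (0.61, 0.438). On the lower side they were Trp63, the p63 factor of basal epithelium (-1.21, 0.201), Glod4 (-0.57, 0.226), Mrps12, of the small mitochondrial ribosomal subunit (-1.13, 0.372), Igfals (-1.40, 0.372), Abca5 (-0.78, 0.372), Ttc19, an assembly factor of respiratory complex III (-0.998, 0.438), Psmd8, a proteasome lid subunit (-2.23, 0.458), and Rab9b (-0.72, 0.469). Trp63 had the Sctr pattern, with 2.05, 2.3 and 2.18 in WT, 3.06, 1.58 and 1.66 in 569, 1, 0.97 and 0.85 in 391 and 0.85, 0.91 and 0.93 in KO. Other probes of several of these genes did not follow. A second Trp63 probe differed by -0.02, and a second Rbm10 probe differed the other way, by -0.37, with no overlap between the groups. The other Usp14 probes differed by 0.27 and -0.14, those of Dmtf1 by -0.21 to 0.30, those of Abca5 by 0.10 and -0.04, and the other Thg1l, Hhip and Ttc19 probes by 0.25, 0.06 and 0.25. Psmd8 was low in fat labelled 391 (0.13, 0.11 and 0.46) and in liver labelled KO (0.16, 0.16 and 0.63), and near 1 in fat labelled KO (1.38, 1.04 and 1.2). In liver, KO minus 391 was called with the sign of the fat difference for Ppfibp1 (1.52, limma adjusted p = 3.26e-05), Thg1l (0.70, 0.00993) and Mrps12 (-1.06, 0.0241). The same held for Abca5 (-0.54, 0.0282), Ttc19 (-0.65, 0.0374) and Psmd8 (-2.25, 0.041). For the other genes of this paragraph it was not called.

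Without 569 replicate 3, an alternative chosen after its values were seen, the count rose to 16 probes (10 lower, 6 higher), and all 6 were among them. Rbm10 (adjusted p = 0.039), Ppfibp1 (0.039) and Thg1l (0.0453) were then called, as were Tm7sf3 (log2 difference -0.90, 0.039), Car11, a carbonic anhydrase-related protein (0.90, 0.0433), 2700062C07Rik (-0.57, 0.0407) and 4 further probes with no symbol.

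Of the growth hormone axis no member was called, and 2 of 17 measured genes of receptor signalling lay below all WT arrays and 1 above, next to 4.99% and 4.64% of all 19406 named genes. The list's median log2 difference was 0.02, and that of all named genes 0.00. The more variable Ghr probe differed by -1.95 (SE 0.73, 95% interval -3.53 to -0.37, limma adjusted p = 1) and the other by -0.91, with WT at 1.09, 1.97 and 1.47, 391 at 1, 0.5 and 0.95 and KO at 1.12, 0.29 and 0.46. The Ghr probes are low in 391 in the sense that no 391 array reached a WT array, yet 569 replicate 3 went as low as 0.13 on the more variable one. Without that array the limma adjusted p was 0.176 for the more variable probe and 0.89 for the other, so neither was called.

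Igf1 encodes insulin-like growth factor I, the main local and circulating mediator of growth hormone. Probe 3130377 had ratios of 1.76, 3.08 and 2.02 in WT and 1.04, 0.91 and 1.02 in 391, a log2 difference of -1.17 (SE 0.72, limma adjusted p = 1). Probe 3290280 had 2.02, 3.49 and 2.2 in WT and 1.47, 0.89 and 1.27 in 391, a difference of -1.07 (SE 0.63). No 391 array overlapped WT on either probe, and neither difference was called. On probe 3130377 the 569 replicates 1 and 2 stood at 4.46 and 4.02 and replicate 3 at 0.34, while the KO arrays lay at 0.85, 0.88 and 0.88. Igfals, the acid-labile subunit that keeps IGF-I in the circulation, had 2.31, 4.07 and 2.16 in WT, 1.31, 1 and 0.84 in 391, and 0.66, 0.66 and 0.69 in KO. Its difference of -1.40 (SE 0.27) was not called.

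Cish, a STAT5-induced feedback inhibitor whose promoter is shown above, stood at 1.32, 1 and 5.69 in WT and 1.34, 0.79 and 0.71 in 391, so the groups overlapped and 1 WT array made the difference of -1.11 (SE 0.58). Without that array, WT replicate 3, the difference was smaller (log2 difference -0.34). Socs2, the other classical feedback inhibitor, differed by -0.42 on 1 probe and by -0.044 and -0.078 on 2 others. On the first probe it had 1.17, 1.09 and 1.5 in WT and 1.24, 0.74 and 0.87 in 391. The transducers lay close to 1 in both groups: Stat5a differed by 0.13 (95% interval -0.41 to 0.68), Stat5b by 0.15 (-0.07 to 0.37) and the Jak2 probes by -0.11, 0.08 and 0.11. The Igfbp3 probes, for the main carrier of IGF-I in blood, differed by 0.34 and -0.10. Of 14 measured genes of the IGF system, Igfals, Igf1 and Igfbp1 lay below all WT arrays and Igf1r, the IGF-I receptor (0.37), above, next to 4.99% and 4.64% of all named genes, with a list median of -0.11.

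**Figure D3:**
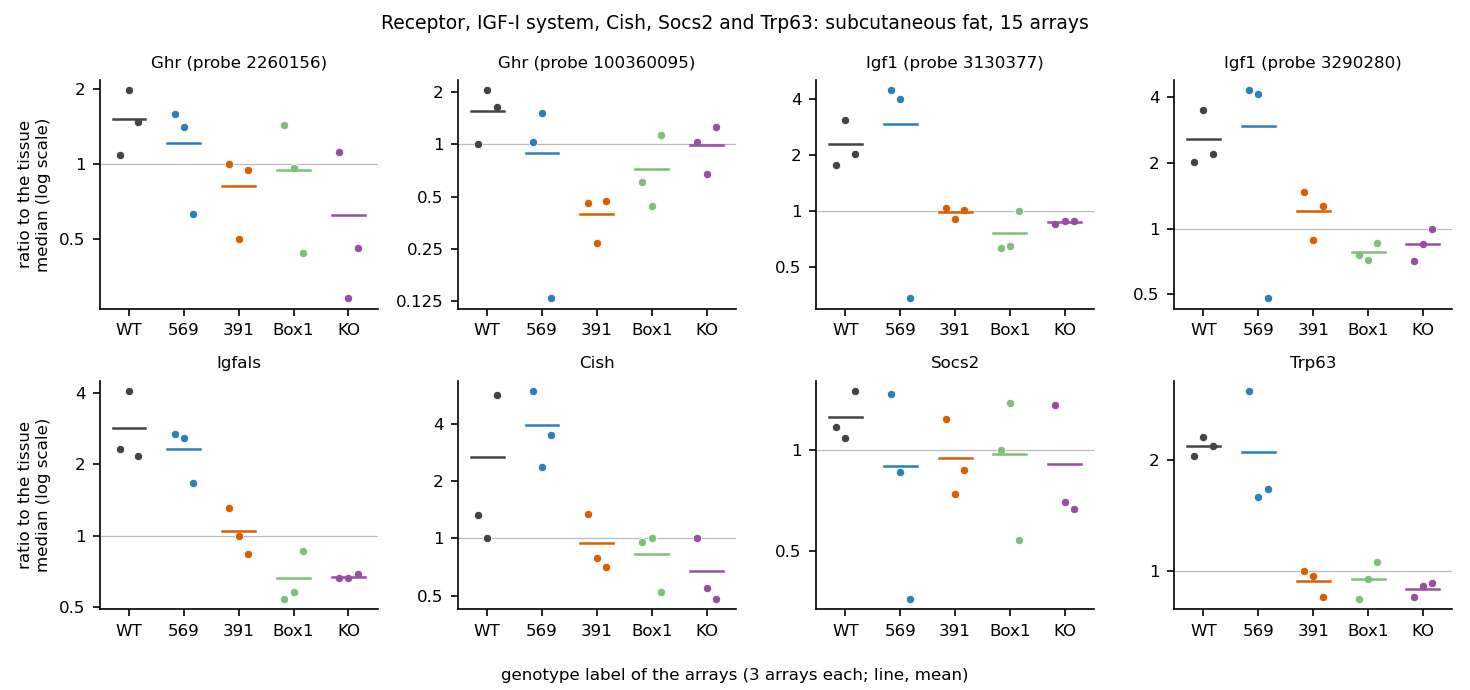
Ratio to the fat median on a log axis for both Ghr probes, both Igf1 probes, Igfals, Cish, Socs2 and Trp63 on the 15 fat arrays by genotype label, 3 arrays each, with the line at the mean. On both Igf1 probes the 3 arrays labelled 391 lie below the 3 WT arrays (1.04, 0.91 and 1.02 against 1.76, 3.08 and 2.02 on the first), and 569 replicate 3 lies far from its group.

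None of the measured members of the 30 gene lists was called between 391 and WT, where 4 of all 19406 named genes (0.0206%) were called on the probe used for lists. In the fit of the 6 arrays alone, the keratinocyte marker Trp63 and the erythroid marker Hbb-b2 were called. Over all named genes 4.99% lay below all WT arrays and 4.64% above, and counts of 0 or 1 in a list of about 20 are near that share. Of 20 measured fat cell genes 5 lay below all WT arrays and 0 above, next to those 4.99% and 4.64% (median difference -0.14). The 5 were Adipor2, an adiponectin receptor (-0.996), Cd36, a fatty acid transporter (-0.94), Fabp4, the fat cell fatty acid carrier (-0.91), Lpl, lipoprotein lipase (-0.57), and Plin4 (-0.19). Fabp4 had 1.28, 2.89 and 1.12 in WT and 0.88, 0.81 and 0.88 in 391, with KO at 1.01, 1 and 1.23. WT replicate 2 was the highest of the 6 arrays in Fabp4, Cd36 (2.11) and Lpl (1.88), and the list's median on that array was 0.53 on the log2 scale against -0.01 and -0.27 on the other WT arrays and -0.18 to -0.09 on the 391 arrays. Adiponectin itself (Adipoq) differed by -0.18 and leptin (Lep) by 0.50, both with overlapping groups.

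For lipolysis, 2 of 17 genes lay below all WT arrays and 1 above (median -0.15), and here too the share of all named genes was 4.99% and 4.64%. Below were Hcar2, the nicotinic acid receptor that restrains lipolysis (1.92, 5.36 and 1.56 in WT, 1, 1.4 and 1.24 in 391, 0.41, 0.45 and 0.78 in KO, difference -1.07), and Pnpla2, the triglyceride lipase ATGL (-0.62). Hormone-sensitive lipase (Lipe) differed by 0.19. Of 22 genes of fatty acid and triglyceride synthesis 1 lay above WT, Lpin1, the phosphatidate phosphatase (0.42, 0.6 and 0.35 in WT, 0.77, 1.01 and 0.76 in 391, 0.91). Fatty acid oxidation had 0 of 22 outside WT in either direction (median -0.05), the thermogenic genes 1 of 15 (median 0.04) and insulin signalling 2 of 20 above and 1 below (median 0.00). Of the 32 respiratory chain genes measured, 25 differed by less than 0 but 1 lay outside the WT arrays, above them, since WT replicate 3 (-0.47) was as low as 391 replicate 3 (-0.47) in list median. Adipokines (median -0.09), cholesterol synthesis (0.07), cell cycle (0.02), ribosomal proteins (-0.07) and glutathione and antioxidant genes (-0.03) had at most 3 members outside WT in a direction.

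Among the glutathione and antioxidant genes the 2 of 22 below WT were catalase (Cat, -1.06) and Gpx3, a secreted glutathione peroxidase (0.68, 1 and 1.17 in WT, 0.48, 0.5 and 0.28 in 391, 0.9, 1.82 and 1.19 in KO, -1.19), next to 4.99% of all named genes. The extracellular matrix list had 19 of 28 differences below 0 (median -0.20), with Sparc, a collagen-binding matrix protein, at 1.24, 2.44 and 1.25 in WT, 0.75, 0.26 and 0.2 in 391 and 1, 0.83 and 1.37 in KO (difference -2.20, SE 0.64, limma adjusted p = 0.919). Mmp14 (-0.79) and Postn (-0.23) were the other members below all WT arrays. The fibrillar collagen gene Col3a1 (-0.93) overlapped because 391 replicate 2 alone was low (0.36, against 1.07 and 1.09), and the list's median on that array was -0.96 against 0.10 on both other 391 arrays.

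Of 20 glucocorticoid and fasting response genes, 12 differed upward in 391 and 8 downward, with a median difference of 0.20. Tsc22d3 (GILZ, 0.35, 0.36 and 0.51 in WT, 1.12, 0.66 and 1.03 in 391) and Lpin1 lay above all WT arrays, next to 4.64% of all named genes. Fkbp5 differed by 0.96 with overlap. KO-labelled arrays were higher still, with Tsc22d3 at 2.31, 2.6 and 1.42 and a list median of 0.996 for KO minus 391 and 1.29 for KO minus WT, 2 comparisons that share arrays with 391 against WT. Tsc22d3 was also above WT on the 569 arrays (1, 0.93 and 0.53), which share the WT slide, and on the Box1 arrays (2.64, 0.68 and 1.53). Of 17 clock genes 3 lay above all WT arrays, Tef (0.89), Per3 (0.93) and Per2 (0.97), and 3 below, Npas2 (-0.85), Nr1d2 (-0.88) and Cry1 (-0.23), next to 4.64% and 4.99% of all named genes, around a median of -0.01. The sources used here do not give the time of death. Immediate early genes had 3 of 20 below (median -0.02), and interferon and MHC genes 2 of 27 below (median -0.01), among them H2-K1 (-0.64).

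**Figure D4:**
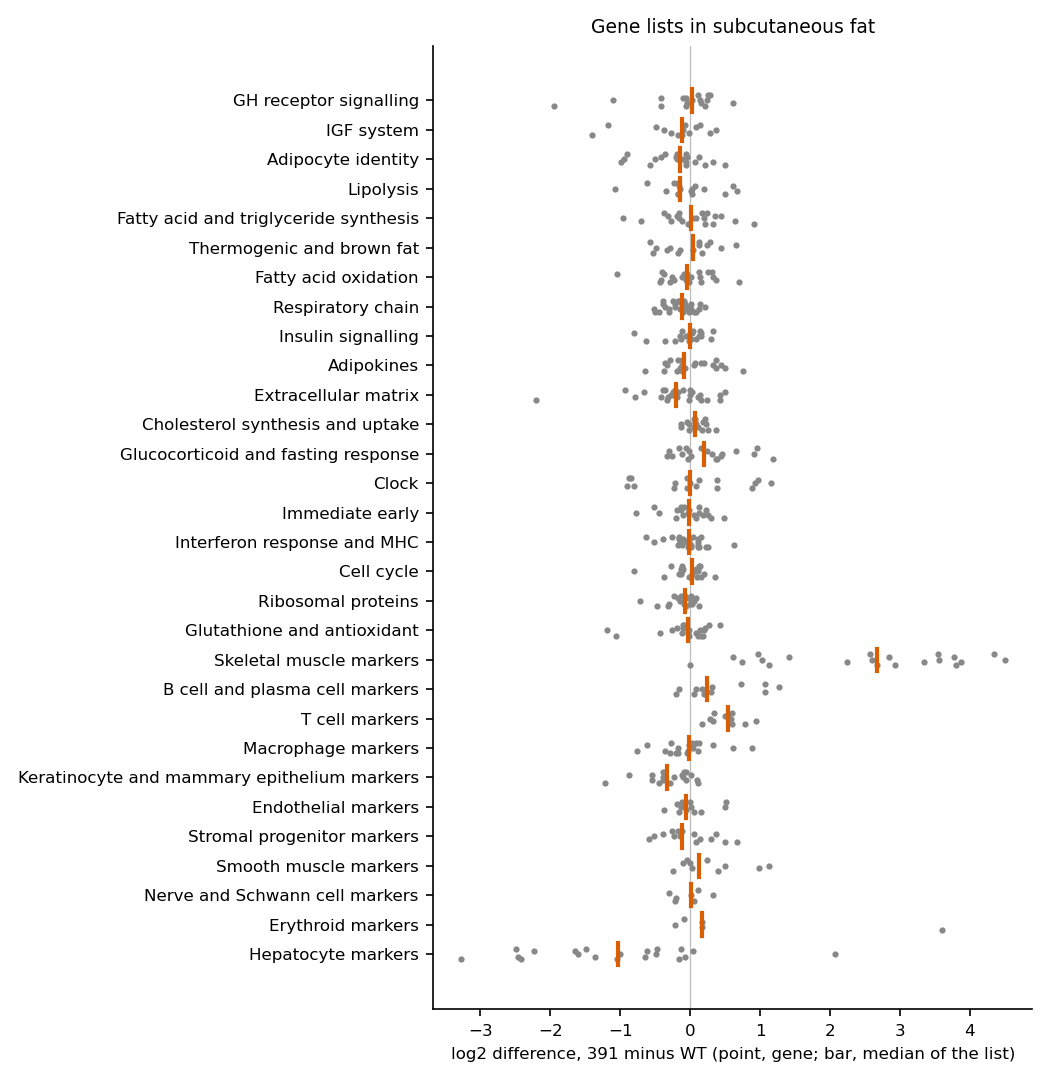
Log2 difference of 391 minus WT on the x axis for each measured gene (grey points) of 30 gene lists, with a bar at each list's median. Most medians lie near 0; skeletal muscle markers lie highest at 2.67 and hepatocyte markers lowest at -1.03, with none of their genes called.

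Of 21 skeletal muscle markers 20 lay above all WT arrays in 391, against 4.64% of all named genes, with a median difference of 2.67 and none called. Atp2a1, the calcium pump of fast muscle, had 0.04, 0.19 and 0.07 in WT and 2.25, 1 and 2.75 in 391 (difference 4.50, SE 2.27). By list median on the log2 scale the WT arrays lay at -2.32, -1.89 and -2.06, the 391 arrays at 0.88, 0 and 1.63, the KO arrays at -0.58, 3.36 and 1.13, the Box1 arrays at -1.69, -1.84 and 4.29, and the 569 arrays at 3.77, -2.47 and 5.22. The 3 WT arrays were thus low together, with 2 Box1 arrays and 569 replicate 2 about as low, and the KO, Box1 and 569 arrays were spread more widely than the 391 arrays. With the mean of these markers as a covariate, an alternative added after seeing the data, 4 probes were called, 3 of them among the 6; Gdi2 (log2 difference -2.74, adjusted p = 0.0594), Adat2 (1.32, 0.0594) and Man2a2 (-1.07, 0.0635) lost their calls with differences near those without the covariate (-2.96, 1.26 and -1.21).

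T cell markers had a median difference of 0.54 and B cell and plasma cell markers of 0.25, and none of either list lay above all WT arrays. WT replicate 2 alone was low in both (list medians -1.60 and -1.51), for example in Ccr7, the homing receptor of lymph nodes (1.37, 0.14 and 1.22 in WT, 1.65, 1.32 and 1 in 391). Hepatocyte markers, a list added after seeing the data, had a median of -1.03 because WT replicates 2 and 3 were high, as in Apoa2 (0.35, 18.41 and 9.28 in WT, 0.78, 0.32 and 0.26 in 391). An exception was a probe of Serpina1b, a liver antitrypsin gene, at 0.88, 4.92 and 2.23 in WT, 11.83, 5.35 and 11.33 in 391 and 1, 0.91 and 0.91 in KO. Box1 replicate 2 was the highest of all fat arrays on this probe (45.78), in Apoa2 (79.45) and in the median of the hepatocyte list (3.90). Keratinocyte and mammary epithelium markers differed by -0.33 in median, with Trp63 and Krt15 (-0.39) of 20 below all WT arrays, next to 4.99% of all named genes. Without WT replicate 2 the median was 0.00068. Macrophage (-0.02), endothelial (-0.06), stromal progenitor (-0.12), smooth muscle (0.13), nerve (0.02) and erythroid markers (0.16) had medians closer to 0. Below all WT arrays lay 3 of 20 macrophage, 1 of 15 stromal progenitor and 1 of 10 smooth muscle genes, next to the same 4.99%. Above lay 1 of 10 smooth muscle genes, next to 4.64% of all named genes, and of 5 measured erythroid genes Hbb-b2 alone lay outside WT, also above. The part of muscle, lymphoid or liver transcripts in the differences of other genes was not tested. The muscle covariate cannot separate muscle content from the label, because the 391 and WT arrays did not overlap in the median of that list.

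**Figure D5:**
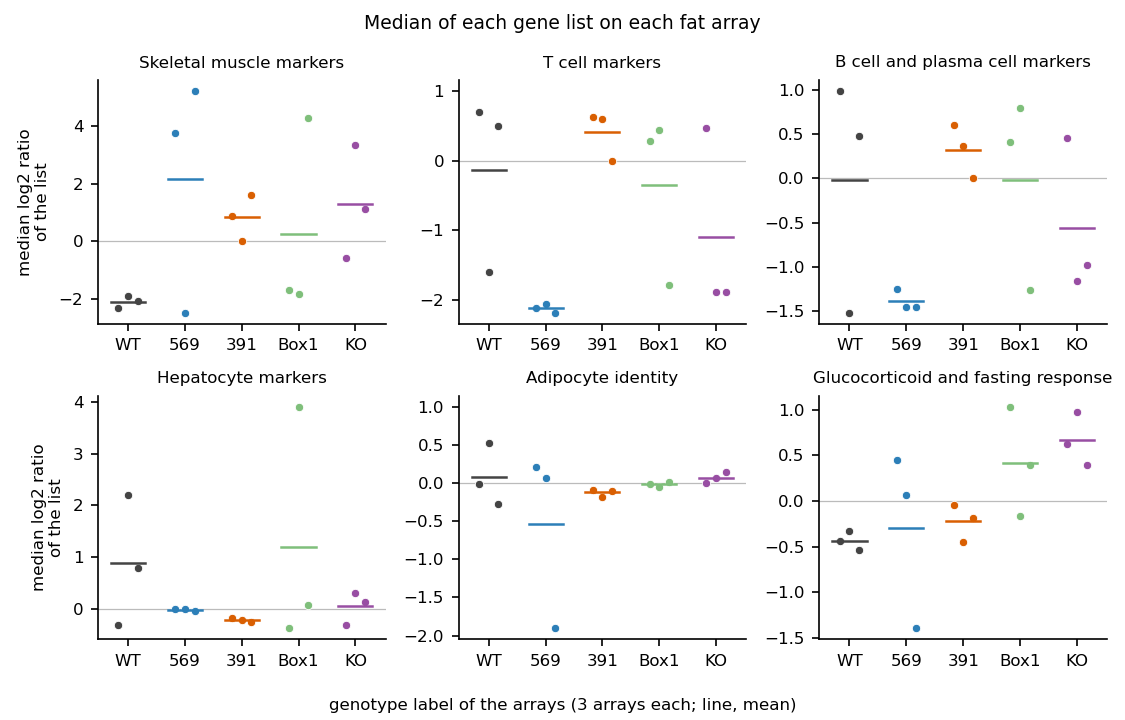
Median log2 ratio of 6 gene lists on each of the 15 fat arrays by genotype label, with the line at the mean of 3 arrays. The WT arrays are low together in skeletal muscle markers (-2.32, -1.89 and -2.06). WT replicate 2, all 569 arrays, KO replicates 2 and 3 and Box1 replicate 3 are low in lymphocyte markers. Hepatocyte markers are highest on Box1 replicate 2 (3.90), followed by WT replicate 2 (2.21), and 569 replicate 3 is low in fat cell genes (-1.90).

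Against KO-labelled fat on the same slide, 8 probes (0.0172%) were called, 4 in each direction (0.00858%). Higher in KO than in 391 were Gdi2 (log2 difference 3.24, limma adjusted p = 0.00961), Pttg1 (1.67, 0.00617), Abca5, a lysosomal lipid transporter (1.43, 0.00832), and Anxa1, a phospholipid-binding mediator of glucocorticoid action (0.97, 0.0368). Lower were the probe with no symbol (-1.42, 0.00617), Adat2 (-1.22, 0.0368), Thg1l (-0.97, 0.0311) and Fmr1, the fragile X gene (-0.87, 0.0368). In liver, KO minus 391 had the opposite sign for Gdi2 (-3.22), Pttg1 (-1.42), Abca5 (-0.54) and Thg1l (0.70), all called there. The sign was also opposite, without a call, for the probe with no symbol (0.54), Adat2 (0.72) and Fmr1 (0.36). Abca5 had 0.52, 0.6 and 0.59 in 391, 1.79, 1.52 and 1.31 in KO and 0.81, 1.15 and 1 in WT, so 391 was the lowest of the 3 labels. Anxa1 instead had 0.86, 0.88 and 0.95 in 391 and 1, 1.05 and 0.82 in WT, with KO apart at 1.47, 1.91 and 1.94. None of the receptor targets was called: KO minus 391 was -0.18 (SE 0.72) and -0.49 (SE 0.63) for the Igf1 probes and -0.50 (SE 0.58) for Cish. For Igfals it was -0.62 (SE 0.27, adjusted p = 0.72), and all KO arrays lay below all 391 arrays. Without 391 replicate 1, 2 or 3 the count was 4, 0 and 12, without KO replicate 1, 2 or 3 it was 5, 0 and 3 (2728 and 2335 probes at an unadjusted p under 0.05 in the fits with 0 calls), and without 569 replicate 3 it was 43. For reference, 0 probes were called between KO and WT in fat (2912, or 6.24%, at an unadjusted p under 0.05).

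Against fat labelled 569, the longer truncation, 4 probes (0.00858%) were called, 3 lower in 391 (0.00643%) and 1 higher (0.00214%). They were Sctr (391 minus 569, -2.25, limma adjusted p = 0.00699), Pttg1 (-2.11, 0.000891), Gdi2 (-2.88, 0.0332) and the probe with no symbol (1.24, 0.0161). This comparison shares the 391 arrays with the other 2. Cish, at 5.93, 2.36 and 3.48 on the 569 arrays and 1.34, 0.79 and 0.71 on the 391 arrays, was not called (391 minus 569, -2.01, SE 0.58, limma adjusted p = 0.31). The Igf1 difference (-0.89, SE 0.72) includes 569 replicate 3, at 0.34. Without that array 73 probes were called, without 569 replicate 1 or 2 it was 1 and 8, and without 391 replicate 1, 2 or 3 it was 6, 2 and 6.

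The 391-minus-WT difference itself differed between fat and liver for 106 probes (0.227%), with 56 higher (0.12%) and 50 lower (0.107%) in fat, in the fit of all 30 arrays. In liver, 890 probes (1.91%) were called for 391 against WT, on arrays that enter the test of the difference too. Liver WT and liver 391 also lay on different slides, so slide and genotype cannot be told apart in liver or in the difference between tissues. Of the 106 probes, 83 were called in liver, 5 in fat and 18 in neither tissue, and 70 were called in liver with a fat difference smaller than 0.5 in size. Serpina1e, an antitrypsin of male liver, went from 107.1, 109.8 and 111.7 in WT liver to 0.73, 0.8 and 0.74 in 391 liver, but from 1.62, 2.49 and 2.72 to 1.05, 1 and 0.82 in fat (fat minus liver 5.95, SE 0.37, limma adjusted p = 7.96e-10). The 391-minus-WT difference had the same sign in both tissues, but in fat it was smaller (-1.22) and not called (limma adjusted p = 0.756). The 569 arrays were low in fat (0.71, 0.8 and 0.78), whereas in liver they lay near WT (119.1, 99.29 and 100.2). Sult2a2, a sulfotransferase of female liver, lay at the lowest listed ratio of 0.01 on all 3 WT liver arrays and at 1.33, 1.22 and 1.05 in 391 liver, with no such step in fat (0.72, 3.96 and 0.91 in WT, 0.85, 0.93 and 0.82 in 391).

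Igf1 probe 3130377 differed by -5.31 in liver (WT 20.72, 18.39 and 18.92, 391 0.44, 0.43 and 0.61) and by -1.17 in fat, a difference between tissues of 4.14 (SE 0.77, limma adjusted p = 0.013). The second Igf1 probe gave 3.06 (SE 0.67, adjusted p = 0.0618). Igfals differed by -4.23 in liver and -1.40 in fat (2.83, SE 0.37, adjusted p = 0.000175). For Socs2 (2.52, adjusted p = 0.223) and Cish (0.82, adjusted p = 0.916) the test of the difference did not pass. In the other direction, the 391-minus-WT difference was lower in fat for Sctr (-2.18, SE 0.24, limma adjusted p = 1.49e-05), Pttg1 (-1.75, 0.000286), Gdi2 (-3.44, 4.45e-05) and Man2a2 (-1.35, 0.00036). Their 391-minus-WT difference in liver lay between -0.08 and 0.49. For Pttg1 and Gdi2 the liver step lay at the KO label.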

How the data were processed

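Biotin-labelled total RNA of subcutaneous fat and liver was hybridized to Illumina bead arrays, per the labels' protocols. Each deposited value is a ratio to the probe's median in its tissue (15 arrays), read from the values: all 46643 probes have a fat median of 1. They have 2 decimals and run from 0.01 to 168.6. The sources used here do not give the background treatment or the normalization, and signal over background is unknown. Log2 ratios of the 15 fat arrays (5 groups of 3) were fitted with limma 3.58.1 in R 4.3.3, with eBayes. Benjamini-Hochberg adjustment was over all probes, with calls at an adjusted p under 0.05. The fit was also run on simulated ratios with independent noise, no slide effect and no outlying array. That run therefore cannot speak to slide or to 569 replicate 3. The difference between tissues was fitted on all 30 arrays. Of the probes, 32794 had 1 gene symbol (32722 updated through RefSeq gene IDs), 55 several and 13794 none, which gave 19406 genes; in lists a gene has its probe with the largest SD over the fat arrays. Named are 8 genes of the receptor axis, up to 12 genes each way with the largest called differences and no overlap, filled by smallest p where fewer were called, up to 3 genes per list by p, and up to 5 each way in the other comparisons; other genes named, most of them list members, were chosen after their values were seen. The members and lists were chosen with earlier results of these data known. Alternatives were quantile normalization, an offset of 0.1, a filter at 0.1, array weights, robust eBayes, the compared arrays alone and leaving out each array; leaving out 569 replicate 3 outside its own comparison, a muscle covariate and the hepatocyte list were added after seeing the data. The number of arrays limits the precision.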

Additional observations from a re-analysis of the deposited data

Results flagged for a closer look

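The difference of 391 from WT differed between fat and liver for the genes below (limma interaction, adjusted p under 0.05); each value is the fat difference minus the liver difference on the log2 scale. The difference was lower in fat than in liver for the called genes Gdi2 (-3.44), Sctr (-2.18), Pttg1 (-1.75) and Man2a2 (-1.35), and, not called in fat, Ttc19 (-1.37), Trp63 (-1.14) and Rab9b (-0.85). It was higher in fat for the called probe with no symbol (1.01) and, not called in fat, Igf1 (4.14), Igfals (2.83), Ppfibp1 (2.01), Dmtf1 (1.14), Hhip (1.06) and Thg1l (0.82). Igf1 (-1.17 in fat, -5.31 in liver) and Igfals (-1.40 in fat, -4.23 in liver) were lower in 391 than in WT in both tissues. In liver, KO minus 391 was called with the sign of the fat difference for Gdi2, Pttg1, Ttc19, Ppfibp1 and Thg1l, and for none of the others in these 2 groups. The liver-led differences chosen by size were those of Serpina1e (5.95), Cyp4a12a (5.51), Ces3a (5.44), Cyp4a12b (5.43) and Ces3b (5.28), which were lower in 391 than in WT liver, and of Sult2a2 (-7.57), Hamp2 (-6.96), Spink1 (-5.49), Sult2a1 (-4.80) and Cyp17a1 (-3.58), which were higher there. The Sult2a2 value rests on WT liver arrays that are all at the lowest listed ratio of 0.01, and the Hamp2 value on WT liver arrays at 0.03, 0.03 and 0.01. No rule was used here to flag single arrays that stand apart in groups of 3, though several are named above.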

How the results depend on the processing

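No paired analysis was possible because the replicate numbers are in accession order and pair nothing. Between 391 and WT, 6 probes were called (2 higher, 4 lower). The count was 24 (11 higher, 13 lower) after quantile normalization, 4 (2 higher, 2 lower) with an offset of 0.1 or with the muscle markers as a covariate, 3 (1 higher, 2 lower) among probes never below 0.1, which tests fewer probes, and 0 to 16 (0 to 6 higher, 0 to 10 lower) with 1 array left out. KO against 391 gave 8, and 81 after quantile normalization, 28 with array weights, 123 on its 6 arrays alone, 4 with the muscle covariate and 0 to 43 with 1 array left out. For 391 against 569 the count was 4, and 41 after quantile normalization, 225 on its 6 arrays alone and 1 to 73 with 1 array left out. The tissue difference gave 106, and 80 to 115 with 1 array left out. The cause of these changes was not tested. Of 125 named probes, 9 turned direction, in 15 refits in all, and none of these differences was called. With 1 array left out, the Igfbp3 probes ran from -0.19 to 0.76 and from -0.68 to 0.34, Jak2 from -0.069 to 0.24, Socs2 from -0.12 to 0.035 and from -0.16 to 0.021, Epb42 from -0.18 to 0.029, Cd4 from -0.018 to 0.46 and Cd8a from -0.096 to 0.70. With the muscle covariate, Igfbp3 was at 0.21, Socs2 at 0.14 and H2-K1 at 0.041. Of 240 list medians refitted, 7 moved by more than the spread between arrays: skeletal muscle to 3.45 after quantile normalization, thermogenic genes to -0.27 and smooth muscle to 0.32 without 391 replicate 2, insulin signalling to -0.045 without 391 replicate 1 and -0.047 without WT replicate 3, and cell cycle to -0.14 and keratinocyte markers to 0.00068 without WT replicate 2.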
